A study of Mus musculus with 63 samples.

Results

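Cytochrome P450 genes were followed through small intestinal organoids and epithelial cells in which the Mediator kinases CDK8 and CDK19 had been removed. A gene was counted as a member when it was annotated as protein-coding, carried a P450 name (Cyp followed by a family number, a subfamily letter and a gene number, or Cyp51), and had at least 10 counts in 3 or more libraries of a count table. Of 54752 genes in the tables, 99 carried such a name and 57 passed this minimum. Separately, 46 members passed in the time course, 46 in the organoid lines, 48 in the table that holds the Wnt3-conditioned and kinase-dead organoids, and 45 in the intestinal epithelial cells (IECs), with 35 passing in every table and 7 in only 1. Cyp17a1, Cyp2f2 and Cyp7b1 stood just inside the minimum with 3 IEC libraries each and at most 20, 200 and 29 counts in any library, while Cyp2a12 and Cyp2j13 stood just outside it with 2 libraries each and at most 148 and 15 counts.

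P450 enzymes are haem proteins that insert an oxygen atom into small lipophilic molecules, taking electrons from P450 reductase and cytochrome b5 in the endoplasmic reticulum or from ferredoxin in mitochondria. Members of the CYP1, CYP2 and CYP3 families oxidise drugs, plant compounds and arachidonic acid, those of the CYP4 family hydroxylate the end of fatty acid and eicosanoid chains, and a smaller group works on endogenous sterols, vitamin D and retinoic acid. In the small intestine most of this activity sits in the absorptive enterocytes of the villus, and the genes are classic targets of nuclear receptors (PXR, CAR, PPAR alpha, FXR, HNF4) and of the aryl hydrocarbon receptor (AHR).

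The data were polyA RNA-seq gene counts of 57 libraries in 19 groups of 3, from mice and organoid cultures of the C57BL/6 strain. Organoids were exposed for 24 h to 100 nM 4-hydroxytamoxifen (4-OHT), which switches on the VillinCreERT2 recombinase, or to 0.001% EtOH as vehicle. In the time course, VillinCreERT2/Cdk8 fl/fl/Cdk19-/- organoids given 4-OHT (which then lack both kinases, CDK8iIEC-KO/Cdk19-/-) or vehicle were collected 3, 5, 7 and 10 days later, so that the vehicle controls already lacked CDK19. The same genotype was collected at day 10 in Wnt3-conditioned medium (Wnt3-CM), and organoids whose only Cdk19 allele codes for a kinase-dead protein (VillinCreERT2/Cdk8 fl/fl/Cdk19 D173A/-) were collected at day 7 after 4-OHT or vehicle. At day 7, 5 organoid genotypes all given 4-OHT were compared with their controls: VillinCreERT2, CDK8iIEC-KO (VillinCreERT2/Cdk8 fl/fl), CDK8iIEC-KO/Cdk19-/-, Cdk8 fl/fl/Cdk19-/- without Cre, and C57BL/6 without any engineered allele. IECs came from VillinCreERT2 and CDK8iIEC-KO/Cdk19-/- mice 14 days after 5 daily injections of 80 mg/kg tamoxifen. Villin drives the recombinase, so Cdk8 is deleted in the epithelium alone, whereas Cdk19-/- is carried by every cell of the animal, including the immune and stromal cells that an IEC library holds. Because each organoid genotype is a separate line, a difference between lines cannot be told apart from a difference between genotypes. No VillinCreERT2 control organoids given vehicle are among the libraries. In the comparisons of 4-OHT with vehicle, Cdk8 deletion therefore cannot be told apart from effects of 4-OHT itself or of Cre activation.

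Total counts ran from 15485959 to 32909565 per library. Whole-gene Cdk8 levels were 53.3 to 57.5 CPM (counts scaled to library size) with 4-OHT against 53.9 to 57.1 CPM in vehicle at day 10. At day 7 they were 42.8 to 47.2 against 47.7 to 50.2 CPM, and in CDK8iIEC-KO/Cdk19-/- organoids 65.1 to 67.2 against 71.9 to 80.8 CPM in VillinCreERT2, lower without overlap both times, while the groups overlapped in CDK8iIEC-KO organoids (78.0 to 83.1 against 71.9 to 80.8 CPM), Wnt3-CM (46.0 to 55.6 against 45.2 to 48.9 CPM) and IECs (49.1 to 52.5 against 45.7 to 52.8 CPM). Those of Cdk19 were 24.7 to 26.0 CPM in the Cdk8 fl/fl/Cdk19-/- line against 28.7 to 34.5 CPM in C57BL/6, and they overlapped between CDK8iIEC-KO/Cdk19-/- and VillinCreERT2 in organoids (27.6 to 27.8 against 27.2 to 29.1 CPM) and IECs (15.1 to 19.0 against 17.5 to 20.97 CPM). The labels do not say which exons are removed, so these whole-gene values do not check the deletion. No enterocyte marker of a list of 12 was at 0 in any group, and their summed level ran from 3201 CPM in day 3 4-OHT organoids to 49974 CPM in IECs. In 1 kinase-dead 4-OHT library hepatocyte transcripts were present (Alb at 20715 counts against 564 in the lowest of its group), and the main kinase-dead values are given with and without it. IEC libraries also carried immune transcripts, at a summed 1638 to 2944 CPM over 7 markers in controls and 1770.4 to 2812 CPM in knockouts. The sums overlap, but the median log2 difference of the 7 was 1.51 (none called by edgeR), and the leukocyte gene Ptprc stood at 51.1, 60.4 and 31.8 CPM in knockouts against 17.2, 34.5 and 17.5 CPM in controls. In bulk RNA a change in the number of cells of a type and a change in RNA per cell cannot be told apart, and the labels do not say whether the libraries of a group came from separate cultures, so the p-values measure the spread between these libraries.

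Levels of different genes were compared as CPM per kb of exon. On that scale Cyp4f14, a CYP4F enzyme that hydroxylates leukotrienes and vitamin E, ranked at the top of the 57 members in 14 of the 19 groups. Its level was 336 CPM per kb in day 7 vehicle organoids, 511 in the VillinCreERT2 line and 582 in control IECs. Next in day 7 vehicle organoids were Cyp2c65 and Cyp2c66, CYP2C enzymes of the gastrointestinal tract, at 301 and 234 CPM per kb. The CAR target Cyp2b10, at 224 CPM per kb, and the CYP2J enzyme Cyp2j6, at 193, followed them. In control IECs the second level belonged to Cyp3a13, the CYP3A enzyme best known outside the liver, at 363 CPM per kb, and Cyp3a25 stood at 207 against 20.1 in day 7 vehicle organoids. Cyp51, the lanosterol demethylase of cholesterol synthesis, showed the opposite order, with 161 CPM per kb in those organoids and 14.0 in control IECs. Organoid and IEC tables were normalised separately, so these cross-table levels were not tested.

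Family by family, the members were the 2 CYP1 genes Cyp1a1 and Cyp1b1, 11 of 15 named CYP2C genes, 6 of 8 CYP2D, 4 of 8 CYP2J, 7 of 16 other CYP2, 5 of 9 CYP3A, 8 of 9 CYP4F, and 4 of 11 genes of the CYP4A, CYP4B, CYP4V and CYP4X subfamilies (Cyp4x1 is not a member). Endogenous substrates were served by 4 sterol and bile acid enzymes, 3 of vitamin D and retinoic acid, 2 of steroid synthesis, and the orphan Cyp20a1 completed the 57. All 11 CYP2C members lie on chromosome 19, 10 of them in 1 cluster from Cyp2c55 (chr19:39007019-39042693, GRCm38) to Cyp2c70 (chr19:40153353-40187333), which also holds Cyp2c39, Cyp2c40, Cyp2c54 and Cyp2c50, which are not members, with Cyp2c23 apart at chr19:44005022-44029208. Reads of such near-identical neighbours can be assigned to the wrong copy, and the low members of a cluster are uncertain in that respect. Over 12 comparisons between groups, 56 members could be tested, 47 were called at least once and 9 never. The share of all genes called at least once was not counted, so the 47 cannot be set against it. In single comparisons up to 38.4% of all genes were called. A call means an adjusted p under 0.05 over all genes tested (edgeR quasi-likelihood test, Benjamini-Hochberg) with a change of more than 1.5-fold.

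**Figure D1:**
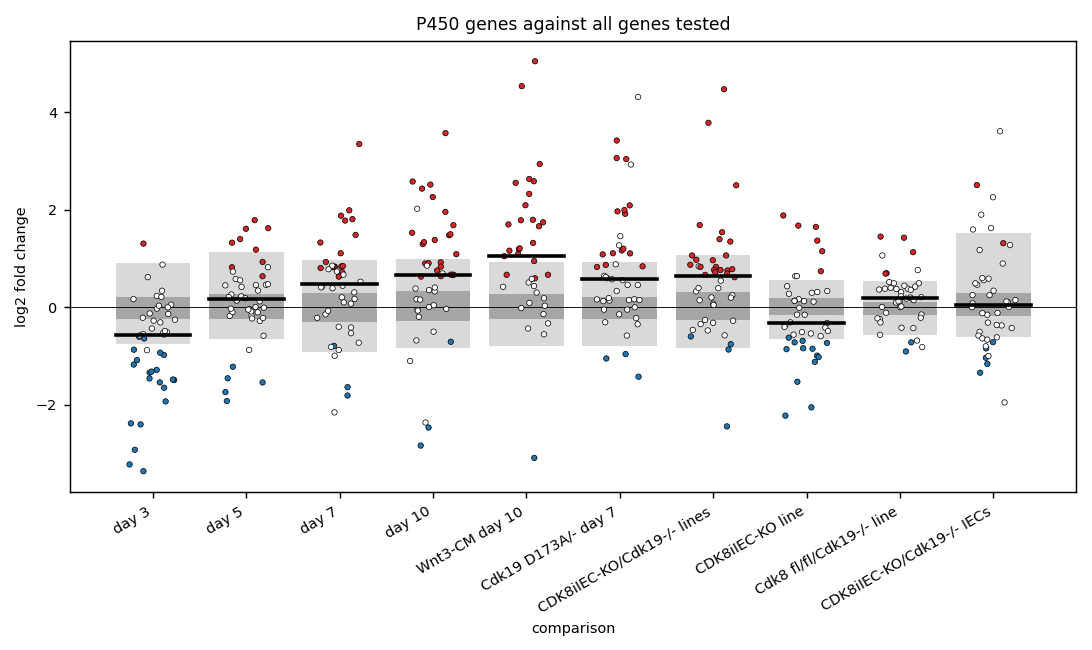
Fitted log2 fold change of each tested P450 gene (points) in 10 comparisons, knockout or 4-OHT against its control; red points were called higher, blue points called lower and white points not called. Dark and light grey boxes span the middle 50% and middle 90% of all genes tested, and the black bar is the median of the P450 genes, which lies at -0.57 at day 3 and at 0.67 at day 10. Fitted values of genes with 1 to 3 counts in a group depend on the prior count.

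At day 3 after 4-OHT, the P450 genes of CDK8iIEC-KO/Cdk19-/- organoids were mostly lower than in vehicle. Of 46 members tested, 21 were called lower, against 5.95% of all genes, and 1 was called higher, against 6.42%. Their median log2 difference was -0.57 against -0.02 over all genes, and their summed level was 2788 to 3006 CPM against 4257 to 4947 CPM. CYP2C genes led, with 9 of 11 called lower and a family median of -1.65. In 31 of the 46 the groups did not overlap, against 51.2% of all genes.

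Cyp2c38, a CYP2C enzyme of arachidonic acid, stood at 7.07, 6.00 and 8.14 CPM in the vehicle libraries and at 0.683, 0.525 and 1.05 CPM in the 4-OHT libraries. The groups were far apart (log2 difference -3.22 ± 0.27 (SE), adjusted p = 5.37e-10). For Cyp2c29, a CAR-inducible epoxygenase, the levels were 214, 178 and 199.7 CPM in vehicle and 47.1, 31.1 and 34.1 CPM in 4-OHT. These did not overlap either (log2 difference -2.40 ± 0.16 (SE), adjusted p = 1.36e-09). Cyp2c70, the rodent bile acid hydroxylase that makes muricholic acids, was low in both groups, at 1.35, 1.43 and 1.54 against 0.146, 0.286 and 0.382 CPM (log2 difference -2.38 ± 0.56 (SE), adjusted p = 0.00131). Cyp2c68 fell from 116, 99.6 and 109 CPM to 33.6, 34.8 and 35.3 CPM (log2 difference -1.65 ± 0.08 (SE), adjusted p = 1.42e-15). Cyp2c65 changed least of the called members in this family (log2 difference -0.60 ± 0.07 (SE), adjusted p = 3.77e-08) and came back under 1.5-fold in 4 of 6 fits that left out 1 library, at -0.58 to -0.55.

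Part of the other xenobiotic families moved the same way at day 3. Called lower were 2 of 4 tested CYP3A, 2 of 5 CYP2D, 2 of 4 CYP2J and 3 of 6 other CYP2 members. The highest values were 0.88 among CYP3A and 0.62 among other CYP2 members, neither called. Cyp3a11, the main PXR-inducible CYP3A of mice, was at 70.0, 58.5 and 70.8 CPM in vehicle and 17.5, 16.8 and 18.1 CPM in 4-OHT (log2 difference -1.93 ± 0.13 (SE), adjusted p = 1.73e-10). Cyp2b10 was at 117, 87.5 and 123 CPM in vehicle and 54.3, 27.4 and 31.1 CPM in 4-OHT (log2 difference -1.54 ± 0.24 (SE), adjusted p = 9.51e-05). In both genes every 4-OHT library lay below every vehicle library. Cyp3a25 (-1.49), the fatty acid hydroxylase Cyp2u1 (-1.34), Cyp2j6 (-1.32), Cyp4f14 (-1.08) and Cyp2d26 (-0.87) were called lower as well, as log2 differences. Among those not called were the 2 tested members of the CYP4B and CYP4V subfamilies, Cyp4b1 (-0.02) and Cyp4v3 (-0.58), the 3 sterol and bile acid enzymes, Cyp1a1 (0.34) and Cyp26b1 (-0.31). Cyp4f15, at 0.648, 0.425 and 0.319 CPM in vehicle and 1.71, 0.906 and 0.86 CPM in 4-OHT, was the member called higher (log2 difference 1.31 ± 0.48 (SE), adjusted p = 0.0327), and it lost the call without vehicle library 2 or 3 (1.26 and 1.11) or 4-OHT library 1 (0.92). Over these same libraries 10 of 12 enterocyte markers were also called lower, with a summed level of 3201 to 3763 CPM against 7267 to 7934 CPM, and 2 of 5 markers of the proximal small intestine were called lower (615 to 718 against 778 to 815 CPM). Distal markers stood at 275 to 292 against 400 to 412 CPM (1 of 4 called higher and 1 lower), tuft markers at 10.3 to 14.2 against 19.6 to 22.4 CPM (1 of 4 tested lower) and pancreas markers at 4.96 to 5.66 against 6.53 to 7.78 CPM (1 of 2 tested higher and 1 lower), each without overlap. Whether the P450 values follow from that was not tested.

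By day 5 fewer members were called lower. Of the 46, 9 were called higher, against 8.58% of all genes, and 5 lower, against 4.62%, with a member median of 0.17, and in 21 the groups did not overlap, against 45.7% of all genes. Cyp4b1, which oxidises fatty acids and furans, had risen to 177, 171 and 156 CPM from 71.5, 78.8 and 50.7 CPM in vehicle (log2 difference 1.33 ± 0.14 (SE), adjusted p = 5.3e-07), and Cyp4v3, a fatty acid hydroxylase, had risen by 1.18 on the log2 scale. Cyp2d34 stood at 13.4, 16.8 and 5.49 CPM in vehicle and 48.3, 40.7 and 33.7 CPM in 4-OHT (log2 difference 1.79 ± 0.39 (SE), adjusted p = 0.00165), after a fall at day 3 (-1.46). Cyp2c38, the member that was most reduced at day 3 among those averaging 20 counts or more, was now above vehicle, at 16.4, 15.1 and 15.7 CPM against 8.07, 9.92 and 6.77 CPM (log2 difference 0.93 ± 0.18 (SE), adjusted p = 0.000188). Cyp2c67 (0.82) and Cyp2c70 (-1.74) were called but lost the call without vehicle library 1 or 3 or 4-OHT library 1 or 3 (Cyp2c67, 0.66 to 0.84) and without 4-OHT library 1 or 3 (Cyp2c70, -1.40 and -1.32). In these libraries 7 of 8 Paneth, 4 of 4 tested tuft and 2 of 7 goblet markers were called lower, and 2 of 12 enterocyte markers higher and 2 lower. Distal markers stood at 590.5 to 602 against 382 to 436 CPM (2 of 4 higher) and proximal ones at 1172 to 1448.8 against 1449.7 to 1992 CPM (2 of 5 lower). Pancreas markers stood at 23.8 to 30.7 against 13.1 to 21.6 CPM (1 of 2 tested higher). The part of these markers was not tested.

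Cyp2c29 was still called lower at days 5 and 7. At day 5 it was at 444, 434 and 528 CPM in vehicle and 149, 166 and 197 CPM in 4-OHT (log2 difference -1.45 ± 0.15 (SE), adjusted p = 8.14e-07). At day 7 the levels were 574, 509 and 645 and 170.3, 211 and 175 CPM (log2 difference -1.64 ± 0.15 (SE), adjusted p = 7.22e-08). At day 10 the groups still did not overlap, at 168, 191 and 148 and 132, 125 and 102 CPM, but the difference missed the threshold (log2 difference -0.50 ± 0.15 (SE), adjusted p = 0.0117). Its gene lies at chr19:39269405-39330713, between Cyp2c66 and Cyp2c38.

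At day 7, 18 of 46 members were called higher, against 9% of all genes, and 3 lower, against 9.25%, and 29 had groups that did not overlap, against 49.6% of all genes. Cyp4b1 reached 278, 246 and 209 CPM against 70.2, 67.1 and 61.9 CPM (log2 difference 1.88 ± 0.14 (SE), adjusted p = 1.8e-09), and Cyp4v3 291, 266 and 201 CPM against 73.5, 78.2 and 68.9 CPM (log2 difference 1.78 ± 0.14 (SE), adjusted p = 5.79e-09). Cyp2j5, an epoxygenase best known from kidney and liver, was at 0.353, 0.544 and 0.914 CPM in vehicle and 5.77, 7.26 and 5.57 CPM in 4-OHT (log2 difference 3.35 ± 0.33 (SE), adjusted p = 2.58e-09). None of the 3 genes had overlapping groups. Cyp2c68 (0.85), Cyp2c65 (0.63), Cyp2d26 (0.72), Cyp3a13 (0.82), Cyp4f16 (0.81) and Cyp27a1 (0.84), a mitochondrial sterol hydroxylase of bile acid synthesis, were also called higher, in log2 units. Cyp2b10 was called lower at this time, at 249, 266 and 304 CPM against 504, 454 and 459 CPM in vehicle (log2 difference -0.79 ± 0.23 (SE), adjusted p = 0.00843). Of the markers at day 7, 7 of 8 Paneth were called lower and 1 higher, and 4 of 4 tested tuft were called lower. Called higher were 3 of 12 enterocyte (12968 to 15224 against 9808 to 12200.0 CPM) and 3 of 4 distal markers (632 to 695 against 381 to 419 CPM). Goblet markers stood at 2955 to 3304 against 3780 to 4038 CPM (1 of 7 lower) and pancreas markers at 28.5 to 34.0 against 12.8 to 17.5 CPM (1 of 2 tested higher). The part of these markers was not tested. Vehicle library 2 held mesenchyme transcripts (Col1a1 at 531 counts against 11 and 10 in the others of its group), and without it 19 members were called higher and 3 lower. The share of all genes called in that fit is not given here, so these counts cannot be set against it.

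By day 10, 24 of 46 members were called higher, against 8.86% of all genes, and 3 lower, against 6.92%, and in 31 the groups did not overlap, against 53.2% of all genes. The member median was 0.67 against 0.02 over all genes, and the summed P450 level was 5651 to 6766 CPM against 4072 to 4231 CPM in vehicle. Every tested CYP2J member (4 of 4), both tested CYP4B and CYP4V members, 4 of 5 CYP2D and 7 of 11 CYP2C members were called higher.

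Cyp2c68 was at 99.8, 93.2 and 94.3 CPM in vehicle and 258, 242 and 227 CPM in 4-OHT at day 10 (log2 difference 1.34 ± 0.08 (SE), adjusted p = 2.45e-14). Cyp2c38 stood at 7.12, 4.30 and 4.36 against 15.0, 13.6 and 12.6 CPM (log2 difference 1.38 ± 0.19 (SE), adjusted p = 1.07e-06), so that both genes had moved from below vehicle at day 3 to above it. The level of Cyp4v3 was 75.2, 60.7 and 59.8 CPM in vehicle and 287, 239 and 235 CPM in 4-OHT (log2 difference 1.96 ± 0.14 (SE), adjusted p = 1.49e-09). For Cyp2d34 it was 7.17, 4.65 and 4.57 against 37.3, 29.0 and 27.9 CPM (log2 difference 2.52 ± 0.43 (SE), adjusted p = 0.000127). Cyp1a1, the gene most tightly tied to AHR, was at 2.52, 2.98 and 2.94 CPM in vehicle and 6.61, 6.91 and 4.49 CPM in 4-OHT (log2 difference 1.09 ± 0.24 (SE), adjusted p = 0.000522), again with no overlap. Cyp2b10, now above vehicle (0.67), lost the call in 4 of 6 fits that left out 1 library (0.54 to 0.63, adjusted p up to 0.105), and Cyp2j6 (0.67) and Cyp4f14 (0.63) dropped under 1.5-fold without 4-OHT library 1 (0.58 each).

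The 3 members that were lower at day 10 were Cyp26b1, Cyp2s1 and Cyp27b1. Cyp26b1, which breaks down retinoic acid, was at 2.13, 4.30 and 4.97 CPM in vehicle and 0.48, 0.58 and 0.516 CPM in 4-OHT (log2 difference -2.83 ± 0.51 (SE), adjusted p = 0.000188). In vehicle organoids it also fell with time, from 59.6, 56.9 and 55.7 CPM at day 3 (log2 difference of day 10 from day 3 -3.92 ± 0.26 (SE), adjusted p = 2.76e-10). Cyp2s1, an extrahepatic epithelial enzyme of retinoid and eicosanoid oxidation, was at 163, 205 and 223 against 112, 129 and 121 CPM (log2 difference -0.71 ± 0.09 (SE), adjusted p = 5.88e-07). Cyp27b1, the vitamin D activating hydroxylase, was called lower at days 5, 7 and 10 with log2 differences of -1.54, -1.81 and -2.46, at levels under 1 CPM throughout and fewer than 20 counts on average. It was singled out after its values were seen. At day 10, 7 of 8 Paneth, 4 of 4 tested tuft and 2 of 7 goblet markers were called lower and 6 of 12 enterocyte markers higher (9920 to 11850 CPM in all against 7962 to 9573 CPM). Proximal markers stood at a summed 1401 to 1648 against 1130 to 1194 CPM (1 of 5 called higher), distal ones at 469 to 555 against 286 to 327 CPM (2 of 4 higher) and pancreas markers at 45.8 to 54.4 against 11.9 to 13.0 CPM (2 of 2 tested higher), and their part in the P450 values was not tested.

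**Figure D2:**
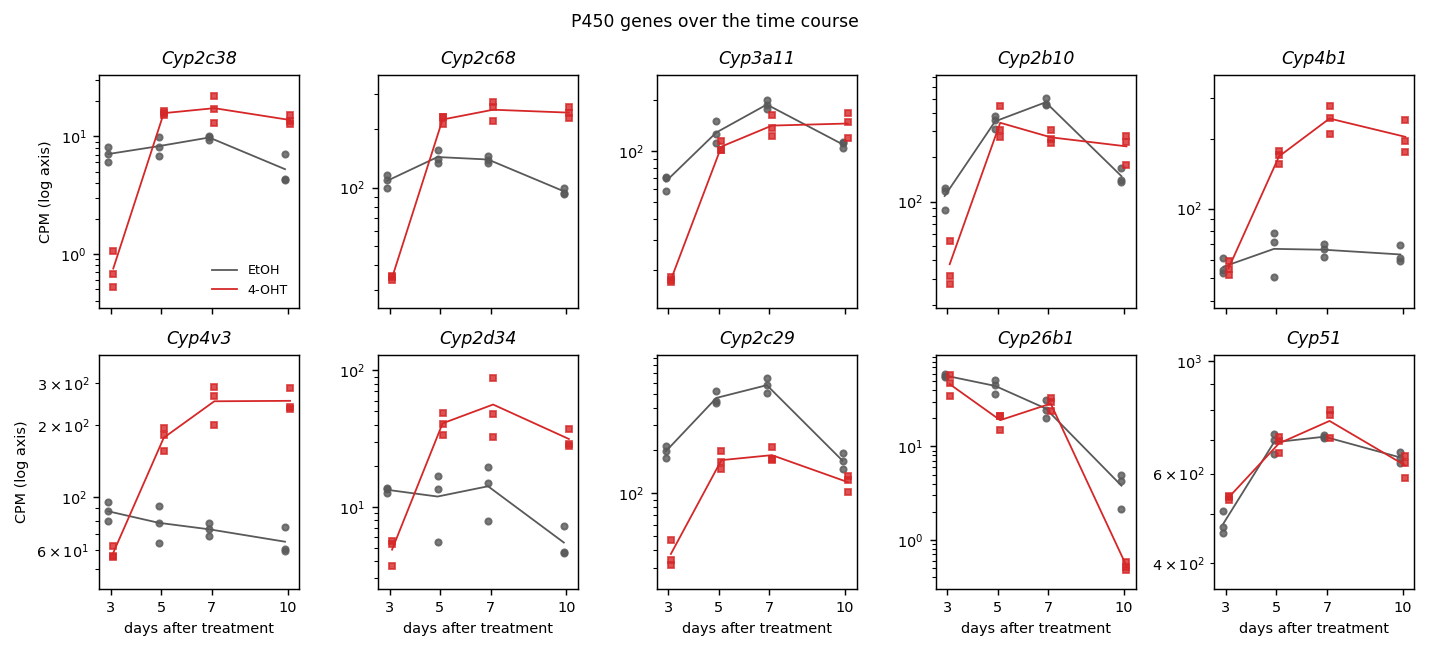
Level of 10 P450 genes (CPM, log axis) in each library of the time course against days after treatment; grey circles are vehicle (EtOH), red squares 4-OHT, and lines join the group means. Cyp2c38 and Cyp2c68 start below vehicle at day 3 and lie above it from day 5, Cyp2c29 stays below vehicle throughout, Cyp26b1 falls in both arms, and Cyp51 runs together in both arms.

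The change of the response with time was tested directly as the day 10 difference minus the day 3 difference. Of 46 members, 28 were higher on this contrast, against 13.9% of all genes, and 2 lower, against 12.4%, with a member median of 1.69. On the same contrast 10 of 12 enterocyte markers were called higher (median 1.5), and 7 of 8 Paneth and 4 of 4 tested tuft markers lower, with 1 Paneth marker higher. Of proximal markers 2 of 5 were higher, of goblet markers 1 of 7 higher and 2 lower, and of distal markers 2 of 4 higher and 1 lower. The part of these markers was not tested. Cyp2c38 had the largest positive value among members averaging at least 20 counts (4.60 ± 0.33 (SE), adjusted p = 1.64e-11), followed by Cyp2c23, an epoxygenase known from kidney (4.22 ± 0.29 (SE), adjusted p = 1.75e-12), and Cyp2d34 (3.97 ± 0.63 (SE), adjusted p = 6.13e-05), all in log2 units. Cyp26b1 (-2.53 ± 0.57 (SE), adjusted p = 0.00132) was lower. Cyp2e1, the ethanol-oxidising P450, was also called lower (-2.98), but it had a single count in the day 10 4-OHT libraries together, so that the fitted value depends on the prior count, and it missed the threshold in 9 of 12 fits that left out 1 library, with values from -3.10 to -2.53. Cyp2d9 (2.40) likewise missed it in 7 of 12 fits, with values from 1.93 to 2.40. In the vehicle arm alone 4 of 46 members were higher at day 10 than at day 3, against 16% of all genes, and 17 were lower, against 22.4%, with 30 not overlapping, against 71.8% of all genes. Cyp2s1 was among those that fell (log2 difference -1.52 ± 0.09 (SE), adjusted p = 1.23e-13), and Cyp1a1 and Cyp2u1 among those that rose (2.01 and 0.98). Vehicle Paneth markers were at 8505 to 8752 CPM at day 10 against 4399 to 5105 CPM at day 3 (1 of 8 higher and 1 lower). Tuft markers were at 4.60 to 6.09 against 19.6 to 22.4 CPM (4 of 4 tested lower). Of the others, 2 of 7 goblet and 1 of 5 proximal markers were higher, 1 of 4 distal lower, and 2 of 12 enterocyte higher and 1 lower. The part of these markers was not tested. Of the 21 members lower at day 3, 14 (66.7%) were among the 24 higher at day 10, of which they made up 58.3%. Over all genes these shares were 29.5% and 19.8%.

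Over the 8 group means of the time course, the log2 levels of Cyp2c23 and Cyp2c38 were the most alike of all pairs among 35 members averaging at least 1 CPM (Pearson r = 0.997). Cyp2c23 with Cyp2j6 (r = 0.994) and with Cyp2c68 (r = 0.989) came next. These values describe 8 group means that share treatment and time, and carry no test.

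Promoter sequence was looked at because most CYP2C members changed in the same direction. Of the 57 members, 48 had a promoter entry in RefSeq (GRCm38.p6, the assembly the submitters' processing notes call mm10), and 250 bases before each start site were searched on both strands for 4 motifs. CAAAGTCCA, a form of the element bound by HNF4, the nuclear receptor of enterocytes and hepatocytes, was found in 6 members (12.5%) and in 0.451% of all 27025 promoters. Of these 6, 5 are the CYP2C neighbours printed here with 30 bases on each side, 5′ to 3′ on the strand of the gene, and capitals mark the motif. Cyp2c65 is at chr19:39060860-39060928 (plus strand), Cyp2c67 at chr19:39649129-39649197, Cyp2c68 at chr19:39741140-39741208, Cyp2c69 at chr19:39886806-39886874 and Cyp2c70 at chr19:40187312-40187380 (all minus strand).
Cyp2c65: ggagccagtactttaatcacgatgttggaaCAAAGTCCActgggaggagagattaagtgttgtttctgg
Cyp2c67: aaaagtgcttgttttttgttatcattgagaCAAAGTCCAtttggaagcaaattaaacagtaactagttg
Cyp2c68: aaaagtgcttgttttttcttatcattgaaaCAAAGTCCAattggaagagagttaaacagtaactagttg
Cyp2c69: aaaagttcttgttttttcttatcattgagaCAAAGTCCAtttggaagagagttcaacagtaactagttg
Cyp2c70: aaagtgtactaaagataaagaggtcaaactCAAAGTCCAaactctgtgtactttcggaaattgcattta
The motif began 116, 125, 77, 75 and 64 bases before the RefSeq start site in that order, in the same orientation as the gene each time. The sixth was Cyp3a11 on chromosome 5, with the motif 109 bases before its start site. The longest GENCODE models of Cyp2c70 and Cyp3a11 begin further upstream than RefSeq's and reach into these windows. Among the 5 neighbours, Cyp2c65, Cyp2c67 and Cyp2c68 were called lower at day 3 and higher at day 10, Cyp2c70 was called lower at days 3 and 5 and not at day 10 (-1.10), and Cyp2c69 had no counts at day 3 in either arm. Cyp2c38 has a promoter entry without these letters, and Cyp2c23 has no entry. The AHR core TNGCGTG was found in 1 member (Cyp2c68, 2.08%) against 4.76% of all promoters. The GATA factor motif AGATAA was found in 8 members (16.7%) against 11.4% of all promoters. The core promoter motif TATAAA was found in 18 members (37.5%) against 14.3%. A match describes the letters and is not a shown binding site, and neighbouring CYP2C genes share ancestry.

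In Wnt3-CM at day 10, where medium from Wnt3-producing cells supplies the ligand, 23 of 37 tested members were higher with 4-OHT than with vehicle, against 9.45% of all genes, and 1 was lower, against 7.42%, and in 29 the groups did not overlap, against 56.3% of all genes. The member median was 1.05 against 0.00 over all genes, and the summed level was 5179 to 5886 CPM against 3070 to 3352 CPM. CYP2C (7 of 8), CYP2D (3 of 3) and CYP2J (3 of 3) genes were called higher nearly throughout. In the same libraries 8 of 12 enterocyte markers were called higher, with a summed level of 9071 to 9955 against 7985 to 9553 CPM. Proximal small intestine markers stood at a summed 1069 to 1109 against 468 to 524 CPM, with no overlap and 3 of 5 called higher, while 8 of 8 Paneth, 5 of 5 tuft and 4 of 7 goblet markers were called lower. Distal markers were at 480 to 540 against 594 to 600.2 CPM (1 of 3 tested lower) and pancreas markers at 9.48 to 16.7 against 0.579 to 1.68 CPM (2 of 2 tested higher). The part of these markers was not tested.

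Cyp3a11 was at 10.0, 6.61 and 8.74 CPM in vehicle and 59.5, 49.5 and 48.5 CPM in 4-OHT (log2 difference 2.63 ± 0.12 (SE), adjusted p = 1.04e-10). Cyp2b10 was at 51.0, 36.2 and 33.1 against 364, 316 and 242 CPM (log2 difference 2.94 ± 0.25 (SE), adjusted p = 0.000522). For both, the lowest 4-OHT library exceeded the highest vehicle library several times over. Cyp2c38 was almost silent in vehicle, at 0.21, 0.157 and 0 CPM, and reached 3.53, 3.40 and 2.03 CPM (log2 difference 4.54 ± 0.45 (SE), adjusted p = 9.06e-08). Cyp4b1 went from 19.1, 11.2 and 14.3 to 81.9, 71.4 and 71.1 CPM (log2 difference 2.33 ± 0.16 (SE), adjusted p = 4.91e-06) and Cyp4v3 from 40.2, 29.8 and 30.9 to 163, 139 and 129 CPM (log2 difference 2.09 ± 0.12 (SE), adjusted p = 1.03e-07). Cyp2j5 had 1 count in the vehicle libraries together, and its ratio was 44.6, with a counting interval of 7.64 to 1799. Cyp26b1 was again the member that fell, from 9.25, 7.98 and 9.90 to 0.795, 1.41 and 0.968 CPM (log2 difference -3.09 ± 0.20 (SE), adjusted p = 3.47e-11).

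The Wnt3-CM response was set against the standard-medium response at day 10 in a joint fit over both tables. On that contrast 6 of 42 members were higher in Wnt3-CM, against 7.11% of all genes, and 2 lower, against 6.21%. These 8 calls, at 13.3% of all genes, became 13 without Wnt3-CM vehicle library 1 or standard-medium vehicle library 1 (13.2% and 13.4%) and 12 without the filter on low counts (7.04%). Of the markers, 7 of 12 enterocyte and 3 of 5 proximal ones were called higher on it and 2 of 4 distal ones lower, and their part was not tested. Cyp2c38 (3.15 ± 0.60 (SE), adjusted p = 0.000688), Cyp2b10 (2.26 ± 0.33 (SE), adjusted p = 0.000809) and Cyp3a11 (2.22 ± 0.20 (SE), adjusted p = 1.98e-06) had the largest positive values among those called, and Cyp3a13 (-1.19 ± 0.10 (SE), adjusted p = 7.09e-08) the largest negative one, in log2 units. Cyp3a13 was at 439, 483 and 505 CPM in Wnt3-CM vehicle organoids and 321, 314 and 339 CPM with 4-OHT, a difference that was not called (-0.55), and at 198, 218 and 226 and 349, 349 and 303 CPM in standard medium, where it was called higher (0.64). The 2 media were processed as separate tables, so the medium and the table cannot be told apart in the levels themselves. Of the 24 members higher at day 10 in standard medium, 19 (79.2%) were among the 23 higher in Wnt3-CM (82.6% of those), against 40.9% and 43.1% over all genes.

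With kinase-dead CDK19 in place of no CDK19, at day 7, 15 of 46 members were called higher with 4-OHT, against 6.05% of all genes, and 3 lower, against 6.25%, with a median of 0.59, and in 26 the groups did not overlap, against 43.2% of all genes. Without the 4-OHT library that held hepatocyte transcripts, 12 were called higher and 2 lower, 13 of these 14 were among the 18 of all libraries, the median was 0.42, and 11.9% of all genes were called in either direction, against 12.3% with all libraries. In that fit 30 of 47 members did not overlap, against 52.4% of all genes. Over all 6 libraries, hepatocyte markers summed to 22.4 to 1125 CPM with 4-OHT and 6.01 to 6.75 CPM with vehicle. Of Paneth markers 7 of 8 were called lower and 1 higher, and 6 of 12 enterocyte markers were called higher, at a summed 24670.4 to 28049.8 CPM against 18348 to 19891 CPM. Proximal markers summed to 4640 to 6618 against 2542 to 2612 CPM (3 of 5 called higher) and pancreas markers to 143 to 166 against 31.7 to 38.7 CPM (1 of 2 tested higher), and all 5 tuft markers were called lower. Distal markers summed to 530 to 584 against 365 to 409 CPM (1 of 3 tested higher) and enteroendocrine markers to 298 to 313 against 714 to 776 CPM (2 of 5 higher and 2 lower), and of goblet markers 2 of 7 were called higher and 2 lower. The part of these markers was not tested. The number of members called was 13 without vehicle library 2 (9.95% of all genes), 12 without vehicle library 3 (9.65%) or 4-OHT library 2 (10.2%), and 19 without vehicle library 1 (12.5%).

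Cyp2d26 was at 417, 353 and 368 CPM in vehicle and 749.8, 818 and 889 CPM in 4-OHT (log2 difference 1.11 ± 0.08 (SE), adjusted p = 1.12e-05, and 1.05 without the hepatocyte library). Cyp3a11 was at 271, 316 and 289.6 against 584, 659 and 726 CPM (log2 difference 1.17 ± 0.09 (SE), adjusted p = 1.12e-05, and 1.09 without it). Their groups did not overlap with or without that library. Cyp2j6 rose from 872, 830.3 and 816 to 1561, 1469 and 1444 CPM (log2 difference 0.83 ± 0.06 (SE), adjusted p = 9.57e-06), and Cyp4v3 from 200.0, 214 and 211 to 358, 403 and 382 CPM (log2 difference 0.87 ± 0.07 (SE), adjusted p = 1.1e-05). Cyp2d22, often set beside human CYP2D6, rose from 11.9, 6.27 and 7.23 to 37.7, 32.4 and 38.1 CPM (log2 difference 2.09 ± 0.23 (SE), adjusted p = 0.000707). Cyp2j5 was called higher at 3.06 and at 2.68 without the hepatocyte library, on the log2 scale.

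Other members depended on single libraries. Cyp2e1 was at 0.657, 0.975 and 41.6 CPM in the 4-OHT libraries against 0.699, 0.564 and 0.868 CPM in vehicle, and its log2 difference of 4.31, not called, became 0.20 without the third library. Cyp2f2, a P450 of lung and liver, was at 0.173, 0.157 and 8.23 CPM in these libraries and at most 0.161 CPM in vehicle. Cyp4a10, a PPAR alpha target, was at 0.489, 0.464 and 0.257 CPM in vehicle and 1.83, 2.99 and 8.35 CPM in 4-OHT (log2 difference 3.42 ± 0.70 (SE), adjusted p = 0.015), which became 2.58 without the hepatocyte library and lost the call without vehicle library 2 or 3 (adjusted p up to 0.0702). Cyp2d9 (3.04), Cyp2d10 (1.97), Cyp2b10 (1.09) and Cyp26b1 (-1.42) lost the call in 4 or 5 of 6 such fits each, with log2 differences from 2.67 to 3.22, 1.73 to 2.13, 0.92 to 1.07 and -1.62 to -1.12. Cyp2t4 (-0.96) lost it in all 6, at -1.05 to -0.89.

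Compared with the CDK19-null response of the same day in a joint fit, the kinase-dead response of 4 of 47 members was higher, against 4.9% of all genes, and that of 7 was lower, against 6.25%. These 11 calls, at 11.1% of all genes, became 20 without the filter on low counts, at 7.11%. On this contrast 4 of 12 enterocyte and 3 of 5 proximal markers were called higher and 3 of 8 Paneth markers lower, and their part was not tested. Without the hepatocyte library 4 were higher, against 4.57% of all genes, and 9 lower, against 6.6%, and 10 of these 13 were among the 11. Cyp2c37 was the member whose value moved most among those called, from 2.87 to 2.32, and Cyp26b1 lost its call (-1.62). Cyp3a11 (1.57 ± 0.15 (SE), adjusted p = 5.57e-06) and Cyp2b10 (1.87 ± 0.28 (SE), adjusted p = 0.00126) were higher, and Cyp4b1 (-1.33 ± 0.16 (SE), adjusted p = 6.71e-05), Cyp4v3 (-0.91 ± 0.15 (SE), adjusted p = 0.000794) and Cyp2w1, an enzyme of fetal gut and colon tumours, were lower (-1.98 ± 0.28 (SE), adjusted p = 0.000174), in log2 units. Cyp4b1 was at 91.5, 103 and 100.0 CPM in kinase-dead vehicle organoids and 121, 157 and 156 CPM with 4-OHT, a difference of 0.56 that was not called. Among the 18 members higher in CDK19-null organoids at day 7, 7 (38.9%) were among the 15 higher in kinase-dead organoids (46.7% of those), against 18.7% and 27.8% over all genes: Cyp2c38, Cyp2d10, Cyp2d26, Cyp2j5, Cyp3a59, Cyp4f16 and Cyp4v3.

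**Figure D3:**
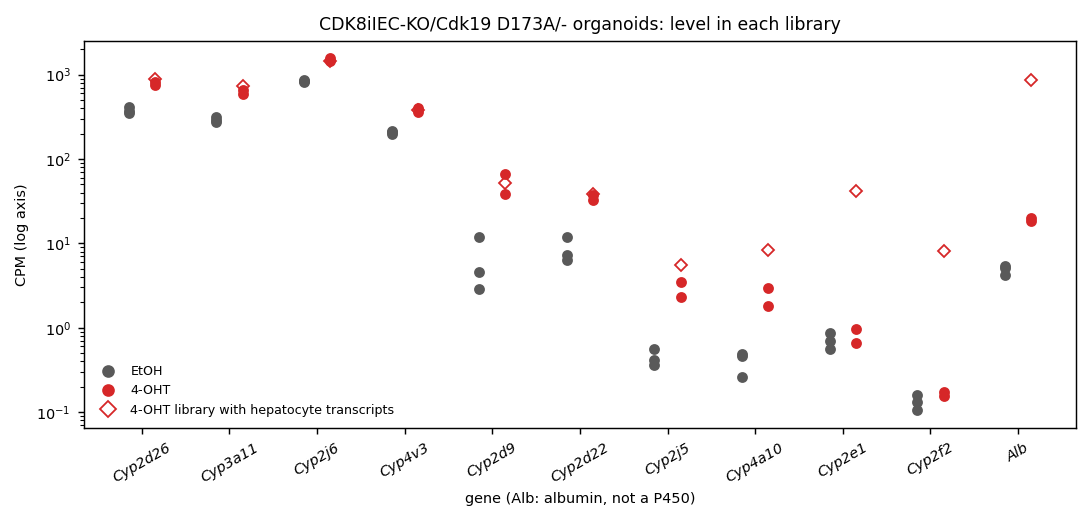
Level of 10 P450 genes and of Alb (CPM, log axis) in each library of the kinase-dead organoids at day 7; grey points are vehicle, red points 4-OHT, and the open diamond is the 4-OHT library with hepatocyte transcripts. The diamond lies with its group for Cyp2d26, Cyp3a11, Cyp2j6 and Cyp4v3, and stands alone for Cyp2e1, Cyp2f2 and Alb.

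Among the organoid lines at day 7, CDK8iIEC-KO/Cdk19-/- was compared with VillinCreERT2, both given 4-OHT. Of 44 members tested, 22 were called higher, against 11.5% of all genes, and 4 lower, against 7.95%, with a median of 0.64 against 0.00 over all genes, and in 35 the groups did not overlap, against 59.8%. All 4 tested CYP4A, CYP4B and CYP4V members and 7 of 9 CYP2C members were higher. Of the enterocyte markers 2 of 12 were called higher, at a summed 18064 to 19371 against 16299 to 19608 CPM. Proximal small intestine markers stood at 5072 to 5346 against 2997 to 3934 CPM (3 of 5 called higher) and distal ones at 353 to 430 against 411 to 767 CPM (3 of 4 lower). Of Paneth markers 6 of 8, of tuft markers 4 of 4 tested and of enteroendocrine markers 3 of 5 were called lower, and 1 Paneth marker was called higher. Goblet markers were at 2225 to 2456 against 3616 to 3773 CPM (3 of 7 lower) and pancreas markers at 33.5 to 44.2 against 17.4 to 28.4 CPM (1 of 2 tested higher and 1 lower), and the part of these markers was not tested.

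Cyp4v3 was at 84.2, 100.4 and 109 CPM in VillinCreERT2 and 299.6, 282 and 272 CPM in CDK8iIEC-KO/Cdk19-/- organoids (log2 difference 1.54 ± 0.07 (SE), adjusted p = 1.18e-14). Cyp2d34 was at 1.85, 1.92 and 1.80 against 34.2, 22.2 and 20.7 CPM (log2 difference 3.78 ± 0.19 (SE), adjusted p = 9.63e-13). Cyp4a10 was at 0.19, 0.048 and 0.15 against 2.98, 3.61 and 2.44 CPM (log2 difference 4.47 ± 0.36 (SE), adjusted p = 1.35e-10). All 3 were separated with no overlap. Cyp2c65 (0.83), Cyp2c66 (0.72), Cyp2c68 (0.87), Cyp2d22 (0.97), Cyp2d26 (0.76), Cyp4b1 (0.78) and Cyp2s1 (0.77) were called higher too. Cyp1a1 was lower, at 0.386, 0.621 and 1.05 CPM against 3.46, 2.78 and 5.05 CPM (log2 difference -2.44 ± 0.39 (SE), adjusted p = 5.44e-05), and so was Cyp2c29 (-0.75). Cyp26b1 (1.06) was called higher, and it lost the call without CDK8iIEC-KO/Cdk19-/- library 2 (0.77), while Cyp2j5 (-0.86) and Cyp2w1 (-0.60) lost theirs without 1 of 3 libraries each (CDK8iIEC-KO/Cdk19-/- library 2 or VillinCreERT2 library 1 or 2, -0.82 to -0.58, and CDK8iIEC-KO/Cdk19-/- library 3 or the same controls, -0.56 to -0.47).

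The 2 control lines themselves differed at many P450 genes. In C57BL/6 organoids 9 members were higher than in VillinCreERT2, against 15.5% of all genes, and 13 were lower, against 10.9%, and 33 did not overlap, against 63.7%. Paneth markers were at 5112 to 6344 against 2856 to 2979 CPM (6 of 8 called higher) and goblet markers at 2623 to 2819 against 3616 to 3773 CPM (3 of 7 lower), while 4 of 5 enteroendocrine markers were called higher and 3 of 12 enterocyte markers lower. Distal markers were at 268 to 305 against 411 to 767 CPM (2 of 4 called lower), and the part of these markers was not tested. Cyp1a1 was at 0, 0.455 and 0.116 CPM in C57BL/6 and 3.46, 2.78 and 5.05 CPM in VillinCreERT2 (log2 difference -4.20 ± 0.52 (SE), adjusted p = 1.96e-06). Cyp2e1 was at 3.49, 5.00 and 3.55 against 0.142, 0.24 and 0.2 CPM (log2 difference 4.33 ± 0.29 (SE), adjusted p = 2.84e-12), and Cyp26b1 at 3.20 ± 0.617 against 0.663 ± 0.0381 CPM (log2 difference 2.26 ± 0.26 (SE), adjusted p = 5.21e-08). Set against the mean of both control lines, the double-knockout difference of Cyp1a1 was -0.34 and no longer called, that of Cyp26b1 -0.06, that of Cyp2j5 0.13, and that of Cyp2e1 -1.32 in place of 0.84. Cyp26b1, Cyp2j5, Cyp2w1 (-0.12) and Cyp39a1 (0.33) also lost their calls, while Cyp2e1 became called. Those of Cyp4v3, Cyp2d34, Cyp4a10 and Cyp2c68 kept their call and sign against that mean.

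Loss of CDK8 alone (CDK8iIEC-KO against VillinCreERT2) left more members lower than higher, with 13 of 44 lower, against 4.34% of all genes, and 6 higher, against 2.9%, and in 29 the groups did not overlap, against 44.9%. The summed P450 level was 5343 to 5782 CPM in CDK8iIEC-KO against 6779 to 7425 CPM in VillinCreERT2. Cyp3a11 was at 405, 386 and 483 CPM in VillinCreERT2 and 153, 159 and 129.9 CPM in CDK8iIEC-KO (log2 difference -1.53 ± 0.12 (SE), adjusted p = 4.26e-07). For Cyp2u1 the levels were 55.5, 71.0 and 59.1 and 27.3, 31.6 and 26.6 CPM (log2 difference -1.12 ± 0.10 (SE), adjusted p = 4.33e-08). Cyp4b1 was at 52.4, 66.9 and 57.6 and 30.7, 30.2 and 37.3 CPM (log2 difference -0.85 ± 0.11 (SE), adjusted p = 1.27e-05). In these 3 genes the CDK8iIEC-KO libraries all lay below the control. Cyp4f14 (-0.73), Cyp2j6 (-0.72), Cyp2d26 (-0.62) and Cyp2c29 (-0.84) were called lower as well, and Cyp1a1 (1.15) and Cyp26b1 (1.65) higher, though DESeq2 did not call Cyp1a1 (1.13, adjusted p = 0.105). This comparison shares its VillinCreERT2 libraries with the double-knockout comparison, and 6 of 12 enterocyte markers were called lower in it, at a summed 11371 to 13099.5 CPM against 16299 to 19608 CPM. Without overlap, goblet markers stood at 2584 to 2747 against 3616 to 3773 CPM (3 of 7 called lower), distal ones at 215 to 252 against 411 to 767 CPM (2 of 4 lower) and pancreas ones at 41.0 to 46.0 against 17.4 to 28.4 CPM (1 of 2 tested higher and 1 lower), and the part of these markers was not tested. Cyp2d34 (-0.86) lost its call in 5 of 6 fits that left out 1 library (-0.88 to -0.67), Cyp4a10 (1.68) without CDK8iIEC-KO library 3 or VillinCreERT2 library 2 (1.54 and 1.29), and Cyp2d26 without VillinCreERT2 library 3 (-0.56).

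Constitutive loss of CDK19 alone (Cdk8 fl/fl/Cdk19-/- against C57BL/6) called the fewest members among the organoid lines, 5 of 44 higher, against 2.86% of all genes, and 2 lower, against 2.39%, and in 23 the groups did not overlap, against 30.8%. Of the markers, Paneth ones were at 4087 to 4493 against 5112 to 6344 CPM (2 of 8 called lower), enteroendocrine ones at 453 to 466 against 642 to 695 CPM (none of 5 called), distal ones at 379 to 422 against 268 to 305 CPM (2 of 4 higher) and pancreas ones at 14.1 to 15.4 against 23.7 to 38.8 CPM (1 of 2 tested lower), and their part was not tested. Cyp2d22 averaged 12.2 ± 0.686 CPM in C57BL/6 and 26.6 ± 2.76 CPM in Cdk8 fl/fl/Cdk19-/- (log2 difference 1.13 ± 0.12 (SE), adjusted p = 9.12e-07). Cyp27a1 was at 1.02, 1.02 and 0.873 and 2.95, 2.91 and 2.01 CPM (log2 difference 1.43 ± 0.23 (SE), adjusted p = 8.09e-05). These 2 kept their calls when any library was left out. Cyp2c38 (0.70), Cyp2j5 (1.45), Cyp26b1 (0.69), Cyp2d10 (-0.72) and Cyp2d34 (-0.90) did not, each losing its call without 1 to 3 of the libraries. Without C57BL/6 library 3, 4 members were called. The share of all genes called in that fit is not given here, so a loss of calls over all genes cannot be told apart from one among the members.

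In IECs 14 days after tamoxifen, 2 of 44 members were higher in CDK8iIEC-KO/Cdk19-/- than in VillinCreERT2 mice, against 0.646% of all genes, and 5 lower, against 0.856%, or 1.5% for both directions. The member median was 0.04 against 0.00 over all genes, and 21 members had groups that did not overlap, against 26.8% of all genes. The summed P450 level was lower in knockouts without overlap, at 5426 to 6803 CPM against 7202 to 8255 CPM in controls.

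Cyp3a13 was at 1139.7, 972 and 1108 CPM in VillinCreERT2 and 498, 455 and 619.9 CPM in CDK8iIEC-KO/Cdk19-/- IECs (log2 difference -1.03 ± 0.14 (SE), adjusted p = 0.0332). Cyp3a25 was at 445, 429 and 422 against 136, 201 and 175 CPM (log2 difference -1.34 ± 0.15 (SE), adjusted p = 0.02). Both CYP3A genes, and Cyp2b10 at 607, 607 and 685 against 371, 307 and 382 CPM (log2 difference -0.84 ± 0.12 (SE), adjusted p = 0.035), had every knockout library below every control library. Cyp2u1 (-1.16) and Cyp4f40 (-0.71) were the other members called lower. Cyp4b1 rose from 113, 61.5 and 93.5 to 250.4, 202 and 213 CPM (log2 difference 1.32 ± 0.22 (SE), adjusted p = 0.0453). Cyp4a10 was at 10.4, 5.92 and 5.56 CPM in controls and 59.3, 27.8 and 37.3 CPM in knockouts (log2 difference 2.51 ± 0.37 (SE), adjusted p = 0.0417). Neither gene had overlapping groups.

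Cyp3a11, lower or higher in other comparisons, was at 889, 814 and 637 and 511, 551 and 682 CPM and not called (log2 difference -0.42 ± 0.17 (SE), adjusted p = 0.227). Cyp1a1 was at 2.47, 4.29 and 5.40 CPM in controls and 7.56, 125 and 16.8 CPM in knockouts, with 1 library far above the rest, and was not called by edgeR (log2 difference 3.61 ± 1.20 (SE), adjusted p = 0.196), while DESeq2 called it (3.61, adjusted p = 0.0234). Cyp1b1, its relative in stromal cells, was at 0, 20.1 and 0.695 and 24.5, 17.9 and 7.91 CPM, and mesenchyme markers likewise varied from 12.8 to 881 CPM in controls and from 453 to 963 CPM in knockouts. The IEC calls rested on few libraries: no member was called without VillinCreERT2 library 1 or 3, 1 without CDK8iIEC-KO/Cdk19-/- library 1 or 3, 6 without CDK8iIEC-KO/Cdk19-/- library 2 and 14 without VillinCreERT2 library 2, when 0.0319%, 0.0191%, 0.273%, 0.199%, 3.69% and 10% of all genes were called in that order. In the fits without VillinCreERT2 library 1 and without library 3, edgeR gave an unadjusted p under 0.05 for 18 and 17 of 45 members, against 12.2% and 10.5% of all genes, and DESeq2 called 9 and 10, against 2.78% and 2.41%. In these libraries 4 of 8 Paneth and 3 of 7 goblet markers were called lower in knockouts, at summed levels of 1075 to 2230 against 3916 to 6539 CPM and of 5221 to 7490 against 12508 to 14859 CPM. Distal small intestine markers were at 849 to 983 against 1378 to 1507 CPM (1 of 4 called lower), tuft markers at 25.4 to 43.9 against 93.1 to 125 CPM (2 of 4 tested lower) and pancreas markers at 6.87 to 74.5 against 0.802 to 6.25 CPM (none of 5 called), all without overlap. The part of these markers was not tested.

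**Figure D4:**
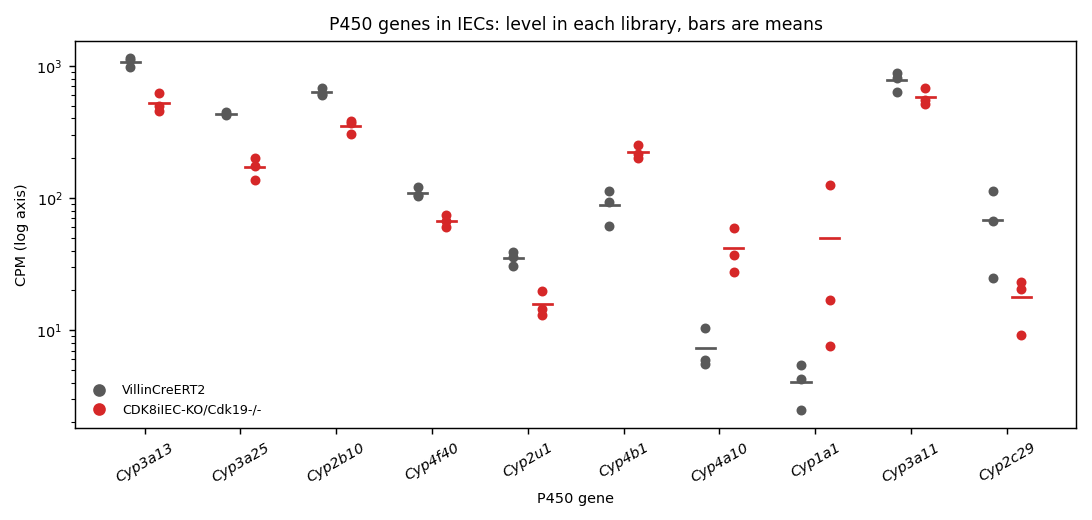
Level of 10 P450 genes (CPM, log axis) in each IEC library; grey points are VillinCreERT2, red points CDK8iIEC-KO/Cdk19-/-, and bars are group means (n = 3). The 3 knockout libraries lie below all controls for Cyp3a13, Cyp3a25, Cyp2b10, Cyp4f40 and Cyp2u1 and above them for Cyp4b1 and Cyp4a10, and 1 knockout library sets the Cyp1a1 mean.

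Sterol enzymes and the orphan Cyp20a1 were seldom called. Cyp51 was tested in all 12 comparisons and never called by edgeR, with log2 differences from -0.15 to 0.59, though DESeq2 called it in IECs (0.59, adjusted p = 0.0424). Cyp20a1 was likewise never called, with -0.08 to 0.56. Cyp39a1, an oxysterol hydroxylase, was called higher in CDK8iIEC-KO/Cdk19-/- organoids (0.69) but not in any 4-OHT against vehicle comparison (-0.19 to 0.19). Cyp27a1 was called higher at day 7 and in the Cdk8 fl/fl/Cdk19-/- line, and was uncalled in the other comparisons of a knockout or 4-OHT with its control, although without the hepatocyte library it was called lower in kinase-dead organoids (-0.66). Cyp24a1, the vitamin D degrading enzyme, did not pass the count minimum and averaged at most 0.123 CPM in any group. Cyp2r1, a vitamin D hydroxylase, was listed at 0 counts in every time-course library, at 0.807, 0.672 and 0.95 CPM in VillinCreERT2, 0.723, 0.595 and 0.511 CPM in CDK8iIEC-KO, 1.43, 1.41 and 1.94 CPM in CDK8iIEC-KO/Cdk19-/- and 0, 0 and 0.0582 CPM in C57BL/6 organoids. With 1 count in the C57BL/6 libraries together, its VillinCreERT2 to C57BL/6 ratio was 40.7, with a counting interval of 6.98 to 1641.

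**Figure D5:**
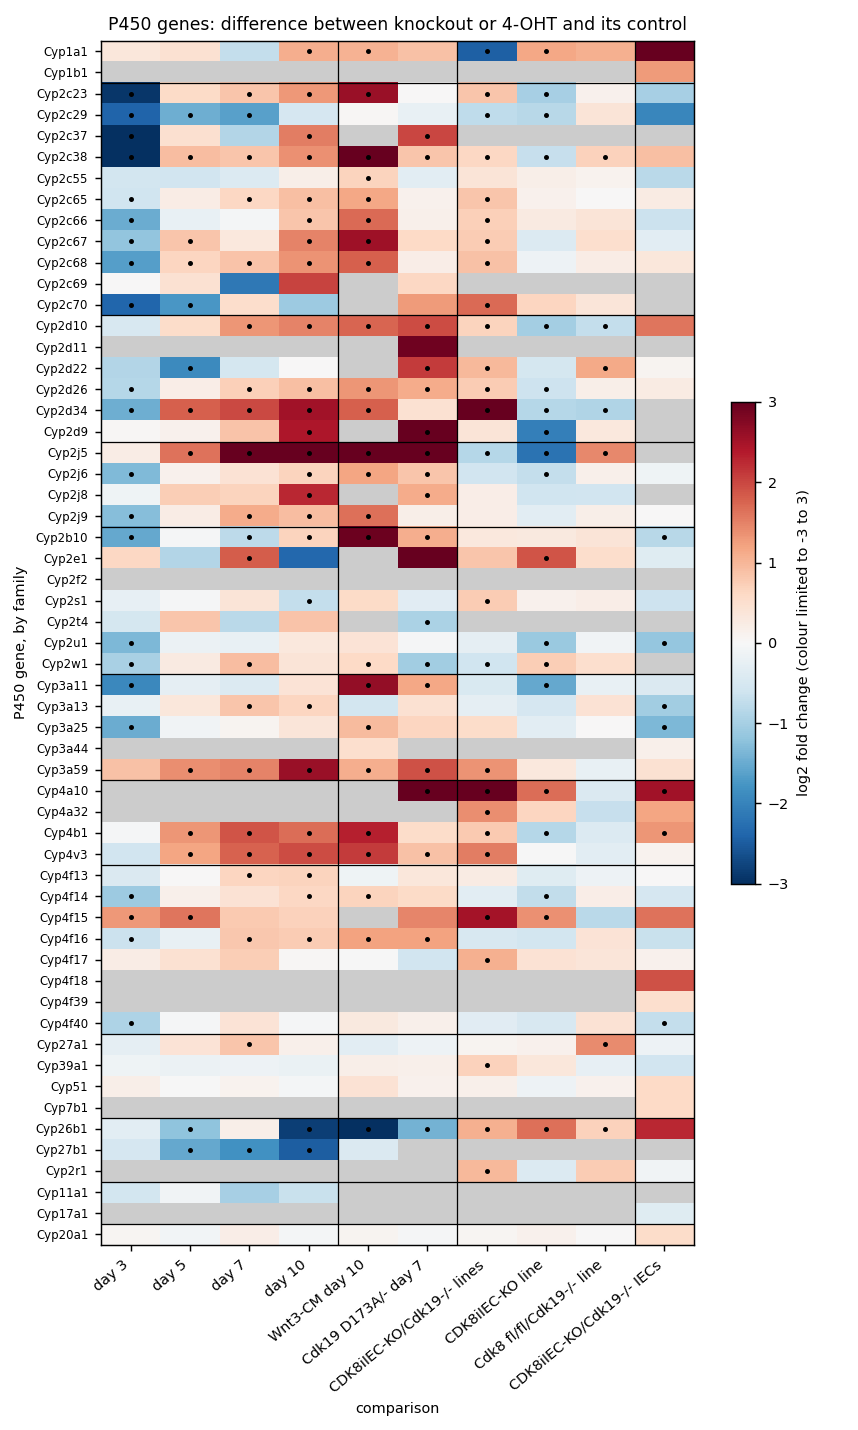
Fitted log2 fold change of all 57 P450 genes (rows, by family) in 10 comparisons (columns), colour limited to -3 to 3, grey where a gene was too low to test and a dot where it was called. Most CYP2C rows are blue at day 3 and red at day 10 and in Wnt3-CM, while Cyp2c29 and Cyp2c70 stay blue at day 10, and the rows of Cyp51 and Cyp20a1 stay pale throughout.

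Genes that supply or regulate P450 enzymes were counted from 3 lists. At day 3, 7.14% of the redox and haem genes, 41.2% of the regulators and 50% of the AHR battery tested were called lower, against 5.95% of all genes. In the same order, 7.14%, 0% and 16.7% were called higher at day 5, against 8.58% of all genes. At day 7 they were 7.14%, 5.88% and 0%, against 9%. At day 10, 21.4%, 17.6% and 66.7% in the same order were called higher, against 8.86%. From day 3 to day 10 in vehicle, 50% of the AHR battery were higher and 33.3% lower, against 16% and 22.4% of all genes. In the CDK8iIEC-KO and Cdk8 fl/fl/Cdk19-/- lines no gene of the 3 lists was called. Of 14 genes of redox partners and haem synthesis, 1 was called lower at day 3, the electron donor cytochrome b5 (Cyb5a, log2 difference -1.09 ± 0.07 (SE), adjusted p = 8.79e-13), and 3 were called higher at day 10, Pgrmc1 (0.89), the rate-limiting haem synthesis enzyme Alas1 (0.68) and Cyb5a (0.62). Por, the P450 reductase, was not called in any comparison of 4-OHT or knockout with its control. Of 17 regulators tested at day 3, 7 were called lower: CAR (Nr1i3, -1.66), PPAR alpha (Ppara, -1.36), Hnf4g (-1.35), Nr1h3 (-1.18), Vdr (-0.85), Rxra (-0.77) and Nr5a2 (-0.60). At day 10, 3 were called higher, Nr1h3 (0.93), Nr1i3 (0.87) and the bile acid receptor FXR (Nr1h4, 0.74), and in Wnt3-CM 4 were higher (23.5%, against 9.45% of all genes) and 1 lower (5.88%, against 7.42%). Hnf4a missed the fold threshold at day 3 (-0.45) and was not called elsewhere. Among 6 tested genes of the AHR battery other than Cyp1a1, 3 were lower at day 3, and 4 were higher at day 10, Gsta2 (1.26), Nqo1 (1.00), Gsta1 (0.96) and Ugt1a6a (0.83), and 4 in Wnt3-CM (66.7%). In kinase-dead organoids 1 of 18 regulators (Ahr, 0.66), 1 of 14 redox or haem genes (Alas1, 0.60) and 3 of 7 AHR battery genes were called, all higher, which is 5.56%, 7.14% and 42.9% against 6.05% of all genes. These kinase-dead counts include the 4-OHT library with hepatocyte transcripts and were not repeated without it, so its part in them was not tested. In CDK8iIEC-KO/Cdk19-/- organoids, where 11.5% of all genes were higher, 2 of 18 regulators were higher (11.1%; Nr0b2, 1.80, and Nr1i3, 0.66), Cyb5r3 of the 14 redox and haem genes was higher (0.61), and of the AHR battery Ugt1a6a was higher (1.67) and Nqo1 lower (-0.83). In IECs edgeR called 0 of 19 regulators (8 had an unadjusted p under 0.05, against 19.9% of all genes, and DESeq2 called 1, against 5.66%), and 1 gene each of the other lists was, Alad lower (-0.60) and Gsta2 higher (1.93).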

How the data were processed

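Per the submitters' processing notes and the methods, polyA RNA of organoids and IECs was sequenced as 100 bp paired-end reads, aligned to mm10 with STAR 2.5.2 and summarised per gene with featureCounts of Subread 1.6.3, and the authors deposited the resulting raw counts, which were used as they stand. Whether counting used strand is not given in the sources used here, and reads shared by near-identical P450 genes may have been assigned to either copy. Total counts were 15485959 to 32909565 per library (median 19374952).

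Counts were filtered with filterByExpr, scaled by TMM and tested with edgeR 4.0.16 (robust quasi-likelihood test, R 4.3.3, limma 3.58.1), with Benjamini-Hochberg adjustment over all genes of the fit. A gene was called at an adjusted p under 0.05 and a change over 1.5-fold. CPM used TMM-scaled library sizes, and CPM per kb the summed exon length. Time-course libraries were fitted together, as were the organoid lines, and the other comparisons each alone or, for a difference between responses, in a joint fit of both tables. The code was tested on simulated data.

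The members, lists and tests were chosen with earlier results of these data known. Genes are named when among the 8 largest rises or falls of called members whose higher group had a mean of 20 counts or more, when on the list of well-studied P450 genes, the lists of redox partners, regulators and the AHR battery, or the marker lists, when next to the count minimum, or when in the 3 most alike pairs. Others are named after their values were seen: Cyp27b1, Cyp3a59 and Cyp2c69, Cyp2f2 apart from the minimum, and in some comparisons Cyp2e1, Cyp2j5 and Cyp4f15. The columns of the kinase-dead organoids were assigned to their group by elimination within their table. Another 6 IEC columns that name no mapped sample were not used. No 2 libraries of a group were alike within sampling noise (lowest chi-square per degree of freedom 2.41). Alternatives were RLE scaling, DESeq2 1.42.0, no filter, fits of only the groups compared, a replicate block, leaving out each library, and the mean of both control lines. Replicate numbers were checked for pairing by the correlation of same-numbered deviations, whose lowest value per comparison ranged from -0.41 to 0.095, so they were not treated as pairs.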

Additional observations from a re-analysis of the deposited data

Results flagged for a closer look

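Among members named by size of change or on the list of well-studied P450 genes, responses were flagged where the test of a difference between 2 responses passed (edgeR quasi-likelihood test, adjusted p under 0.05 and more than 1.5-fold). Other members that passed for day 10 minus day 3, where 28 were called higher, are not listed. All values are differences of log2 fold changes. No explanation of these was tested.

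Between day 10 and day 3 of the time course, the response of the CYP2C genes rose by 4.60 for Cyp2c38, 4.22 for Cyp2c23, 2.98 for Cyp2c68, 2.65 for Cyp2c67, 2.32 for Cyp2c66, 1.90 for Cyp2c29, 1.51 for Cyp2c65 and 0.73 for Cyp2c55. Among CYP2D and CYP2J genes it rose by 3.97 for Cyp2d34, 2.40 for Cyp2d9, 1.77 for Cyp2d26, 3.34 for Cyp2j5 and 1.99 for Cyp2j6. Among CYP3A, CYP2B and CYP2U genes it rose by 2.34 for Cyp3a11, 1.84 for Cyp3a25, 0.85 for Cyp3a13, 2.21 for Cyp2b10 and 1.67 for Cyp2u1. Among fatty acid hydroxylases it rose by 2.53 for Cyp4v3, 1.71 for Cyp4b1, 1.71 for Cyp4f14 and 1.39 for Cyp4f16. The response of Cyp2e1 (-2.98) and Cyp26b1 (-2.53) was lower at day 10 than at day 3, and the values of Cyp2e1 and Cyp2d9 did not pass in most fits without 1 library, as given above.

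Between Wnt3-CM and standard medium at day 10, the response was larger in Wnt3-CM for Cyp2c38 (3.15), Cyp2b10 (2.26), Cyp3a11 (2.22), Cyp2s1 (1.29), Cyp2c66 (0.86) and Cyp2j9 (0.74), and smaller for Cyp3a13 (-1.19) and Cyp4f13 (-0.81).

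Between kinase-dead and null CDK19 at day 7, the response was higher with the kinase-dead protein for Cyp2c37 (2.87), Cyp2d22 (2.62), Cyp2b10 (1.87) and Cyp3a11 (1.57). It was lower for Cyp2w1 (-1.98), Cyp26b1 (-1.60), Cyp4b1 (-1.33), Cyp4f17 (-1.32), Cyp2j9 (-0.95), Cyp4v3 (-0.91) and Cyp2c68 (-0.66). Cyp26b1 missed the threshold in 9 of 12 fits without 1 library (-1.73 to -1.28) and Cyp4f17 in 5 of 12 (-1.34 to -1.14).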

How the results depend on the processing

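Under RLE scaling and fits of only the groups compared, every count of members called stayed within 1.5 times its value. In IECs the count of 7 (with 1.5% of all genes called) became 12 without a filter on low counts (3.51%), 14 with DESeq2 (5.66%) and 1 with a replicate block (0.0527%). The difference between kinase-dead and CDK19-null responses (11 members, 11.1% of all genes) rose to 20 without a filter (7.11%). Leaving out 1 library gave 0 to 14 in IECs, 4 to 9 in the Cdk8 fl/fl/Cdk19-/- line (main 7) and 8 to 13 for Wnt3-CM against standard medium (main 8). It gave 18 to 22 at day 3, 10 to 15 at day 5, 20 to 23 at day 7, 24 to 28 at day 10, 28 to 30 for day 10 minus day 3, 18 to 19 for vehicle (main 21), 23 to 24 in Wnt3-CM, 12 to 19 in kinase-dead organoids, 24 to 26 in double-knockout organoids, 16 to 19 in CDK8iIEC-KO, 22 to 24 between control lines and 9 to 13 between kinase-dead and null responses. In the same fits the share of all genes called ran from 0.0191% to 10% in IECs and from 9.65% to 12.5% in kinase-dead organoids. For the other ranges the shares over all genes are not given in full, so those ranges cannot be set against them.

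Set against both control lines averaged, the double-knockout values of Cyp2j5 (0.13) and Cyp26b1 (-0.064) changed sign and lost their call (edgeR adjusted p = 0.773 and 0.855). Cyp2e1, not called at 0.84 in the main fit, became called lower (-1.32, edgeR adjusted p = 0.00399), and 3 other named genes lost their call. Values of named genes lost a call 141 times and gained one 53 times when 1 library was left out (3058 kept their side of the threshold), 6 and 8 times with DESeq2 (439 kept), 8 and 11 times without a filter (436 kept) and 7 and 7 times with the block (441 kept). The cause of these changes was not tested.

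The lowest correlation of same-numbered deviations was under 0.1 in every comparison (-0.41 in IECs), so the numbers were not taken as pairs, although all 3 were positive in Wnt3-CM (0.095 to 0.22), kinase-dead organoids (0.095 to 0.38), the control lines and days 7 and 10. All 6 libraries correlated best with their own number in Wnt3-CM and between the control lines, as a hint from the data. With the replicate block 28 members were called at day 10, 29 for day 10 minus day 3, 15 at day 5, 23 in kinase-dead organoids, 17 for kinase-dead against null, 11 for Wnt3-CM against standard medium and 1 in IECs, and the comparisons not named here kept their counts. The block in the 2 joint fits, by number within each table, was added after the data were seen. Members with under 20 counts are limited by depth, and 42 of the 99 named P450 genes were too low to describe.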

Other observations

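Cyp1b1, Cyp4f18, Cyp4f39, Cyp7b1 and Cyp17a1 passed the filter for testing in IECs alone, and their log2 differences between knockout and control were 1.28, 1.90, 0.49, 0.60 and -0.36, with overlapping groups for each. The adjusted p (edgeR) was 0.301 for Cyp4f18 and higher for the other 4.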
